A study of Mus musculus with 6 samples.

Results

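Integrins are adhesion receptors made of an alpha and a beta subunit, and 10 integrin genes through which blood progenitors and leukocytes bind BM stroma, matrix and other cells were compared between c-Kit+ APL progenitors and normal MPs. The genes were taken by name from the 16440 genes of the deposited table, and all 10 were found there. They are the beta subunits Itgb1, Itgb2 and Itgb7 and the alpha subunits Itga4, Itga5, Itga6, Itga9, Itgav, Itgal and Itgae. RNA sequencing covered 6 libraries, 3 from each group. The normal MPs (myeloid progenitors) were Lin-Sca-1-c-Kit+ mouse BM cells, sorted without mature lineage antigens and Sca-1. The c-Kit+ APL progenitors came from hMRP8-PML/RARα transgenic mice, in which a human myeloid promoter drives the fusion protein PML/RARα of acute promyelocytic leukemia, and they had been labeled with GFP by the retroviral vector MigR1 and expanded by transplantation into syngeneic mice. All cells were of the strain FVB N/J, and no treatment is named for either group. Sex, the age of the cell donors, the clonality of the leukemia and the number of mice behind each library are not stated.

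In an integrin, the alpha subunit largely sets the ligand and the beta subunit carries the tail that binds talin and kindlin inside the cell. Itgb1 pairs with Itga4, Itga5, Itga6, Itga9 and Itgav. Itga4 with Itgb1 forms VLA-4, the receptor for VCAM-1 and fibronectin that holds progenitors in the BM, and Itga4 with Itgb7 forms the receptor for the mucosal addressin MAdCAM-1. Itgal with Itgb2 forms LFA-1, the leukocyte receptor for ICAMs.

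The libraries held between 20608736 and 28382773 fragments. Where 3 values are given for a group, they are in the order of libraries 1, 2 and 3. Values are given as scaled fragments, which are the authors' estimated fragments per gene after scaling by a factor of each library, and as FPKM where genes are compared with each other, because FPKM also divides by transcript length. Log2 fold changes are for APL over MP on log2(scaled fragments + 1), with p from limma and Benjamini-Hochberg adjustment over the 14595 genes tested. A gene was called higher or lower at an adjusted p under 0.05 and a fold change over 1.5. Kit, the gene of the sorted receptor, was present in every library, with 10668 ± 272 scaled fragments in MPs and 5929 ± 132 in APL progenitors (SD, n = 3 each). Ly6a, the gene of Sca-1, was low in both, with 27.2 ± 7.09 and 43.4 ± 4.99 scaled fragments. In APL progenitors Kit was called lower (log2 fold change −0.85, adjusted p = 5.9e-06 from limma) and Ly6a higher (0.68, adjusted p = 0.043 from limma). Among the MPs, library 3 was the most distant: its differences from libraries 1 and 2 varied 13.9 and 14.0 times as much as counting noise gives, whereas libraries 1 and 2 differed by 3.06 times. MP library 2 stood apart in mature neutrophil markers, whose summed FPKM was 1036 there and 2195 and 1798 in MP libraries 1 and 3.

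All 10 integrin genes passed the filter on low values, Itga9 through the MP libraries. In c-Kit+ APL progenitors, Itgb1, Itgal and Itgav were called higher, and Itga4, Itga6, Itga9 and Itgb7 were called lower, so that 7 of 10 (70.0%) were called against 46.1% of all genes tested. Of all genes tested, 21.7% were called higher and 24.4% lower. The other genes, Itga5, Itgb2 and Itgae, were not called. The median log2 fold change was −0.43 over the 10 integrin genes and −0.10 over all genes tested. The 3 libraries of each group did not overlap for 9 of the 10, against 70.9% of all genes tested, and the exception was Itgae. With a two-sided exact permutation test each of these 9 genes had p = 0.1, below which 3 libraries per group cannot go, and Itgae had p = 0.9. An adjusted p under 0.05 from limma, whatever the fold change, was also reached by these 9 genes, against 67% of all genes tested. In bulk RNA, fewer cells that express a gene and less RNA of it per cell cannot be told apart.

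**Figure D1:**
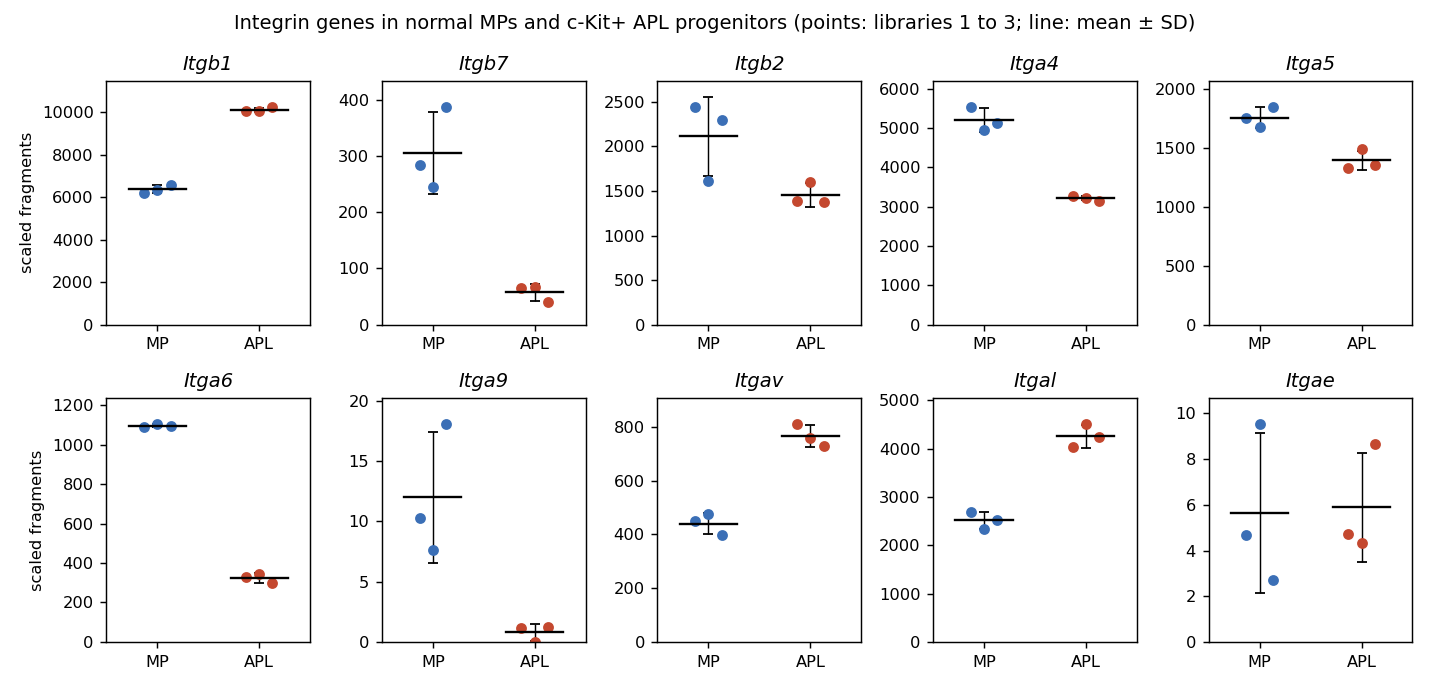
Scaled fragments of the 10 integrin genes (y axis, from 0, a scale of its own in each panel) in normal MPs (blue) and c-Kit+ APL progenitors (red). Points are single libraries in the order 1 to 3, and lines are the mean ± SD; the groups are apart for Itgb1, Itgb7, Itga4, Itga6, Itgav and Itgal, come within a few fragments of each other for Itgb2 and overlap for Itgae.

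Itgb1, the common beta subunit of the fibronectin, laminin and VCAM-1 receptors, lies on chromosome 8 of GRCm38 (mm10) from 128685654 to 128733579. The MP libraries held 6207, 6316 and 6585 scaled fragments, and the APL libraries held 10034, 10023 and 10227. The lowest APL library was far above the highest MP library, and the spread within each group was small. Its level was higher by 0.66 on the log2 scale (SE, standard error, 0.07), or 1.59-fold (adjusted p = 2.8e-05 from limma). The value lies close to the threshold of 1.5, and the call was lost when each library was scaled to the same total (log2 fold change 0.53), with voom weights (0.53) and with quantile normalization (0.57). The 778 tested genes of chromosome 8 had a median of 0.48 on the same scale, and 60.0% of them lay below Itgb1. The increase of Itgb1 was thus 0.19 above the median of its own chromosome on the log2 scale, and the part of the level of the whole chromosome in this increase was not tested.

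Itgb7, the alternative beta subunit of Itga4 and the partner of Itgae, lies on chromosome 15 from 102215995 to 102231935. Scaled fragments numbered 285, 246 and 387 in the MP libraries and 66.0, 66.8 and 40.7 in the APL libraries. Every APL library was far below the lowest MP library. This was a log2 fold change of −2.39 (SE 0.24), a 5.25-fold decrease (adjusted p = 2.9e-05 from limma), and between −2.54 and −2.16 with 1 library left out at a time. The 563 tested genes of chromosome 15 had a median of 0.46, and 7.46% of them lay below Itgb7.

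Itgb2, the beta subunit of the leukocyte integrins such as LFA-1, lies on chromosome 10 from 77530348 to 77565674. The MP libraries held 2441, 1613 and 2292 scaled fragments, and the APL libraries held 1383, 1606 and 1377. The groups did not overlap, but MP library 2 and APL library 2 were almost equal. The log2 fold change was −0.52, with a 95% confidence interval from −0.86 to −0.18 (adjusted p = 0.013 from limma), and did not pass the fold change threshold. Without MP library 2 it was −0.70 and without APL library 2 it was −0.59, and in both cases it passed. It also passed with each library scaled to the same total and with voom weights (−0.65 in both). MP library 2 was likewise the lowest MP library for mature neutrophil markers. Of these 7 markers, 1 was called higher (Cd177) and 2 lower (Ltf and Ngp), a share of 42.9% near the 46.1% of all genes tested, and their most abundant gene was Camp. Their summed FPKM was 2195, 1036 and 1798 in MPs and 1135, 1305 and 1161 in APL progenitors, and their part in the values of Itgb2 was not tested.

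The sequences upstream of Itga4 and Itgb1 are shown because the subunits of VLA-4 moved in opposite directions. They are the 250 bases before the RefSeq start of each gene, on GRCm38.p6 and on the plus strand, at chr2:79255176-79255425 for Itga4 and chr8:128685404-128685653 for Itgb1. Capitals mark matches, on either strand, to a RUNX motif (TGTGGT), an ETS motif (GGAAGT), a PU.1 motif (GAGGAA) or a GATA motif (AGATAA).
Itga4: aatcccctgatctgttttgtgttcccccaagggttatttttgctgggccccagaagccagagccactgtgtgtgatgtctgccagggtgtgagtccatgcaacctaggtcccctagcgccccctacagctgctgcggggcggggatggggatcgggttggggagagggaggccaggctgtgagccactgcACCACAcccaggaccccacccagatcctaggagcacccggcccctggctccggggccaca
Itgb1: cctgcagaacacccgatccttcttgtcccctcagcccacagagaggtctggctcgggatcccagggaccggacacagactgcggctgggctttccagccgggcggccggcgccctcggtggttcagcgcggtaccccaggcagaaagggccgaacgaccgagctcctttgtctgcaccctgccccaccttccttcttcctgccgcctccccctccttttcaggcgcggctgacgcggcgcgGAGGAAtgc
Itga4 held a RUNX match on the minus strand, which 14.0% of the 32851 promoter windows of this length in the RefSeq set also held. Itgb1 held a PU.1 match, found in 23.3% of all windows. The ETS motif was found in 19.7% and the GATA motif in 9.99% of all windows, and these letters were in neither window shown. The window of Itgb1 held 21 CG pairs and that of Itga4 held 6, with a median of 6 over all windows. RefSeq windows were matched for 6 of the 10 integrin genes, namely Itga4, Itga5, Itga9, Itgav, Itgb1 and Itgb7. The window of Itga9 ends before a RefSeq start at 118711692, inside the deposited locus, which begins at 118606709. It is therefore not upstream of that whole locus. A RUNX match was found in Itga4, an ETS match in Itgav, and PU.1 matches in Itga5, Itgav and Itgb1. A match of letters is a description and not a binding site.

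Itga4, the alpha subunit of VLA-4, lies on chromosome 2, and its locus in the table runs from 79255426 to 79428988. Scaled fragments numbered 5533, 4957 and 5123 in the MP libraries and 3267, 3222 and 3157 in the APL libraries. The groups were well apart. Itga4 was thus lower, with a log2 fold change of −0.69 (SE 0.07) or 1.62-fold (adjusted p = 2.4e-05 from limma). The call was lost in 1 alternative chosen after the values were seen, a median ratio scaling without the genes of chromosomes 8 and 15 (log2 fold change −0.58). The table gives Itga4 and its neighbor Cerkl the same locus, and fragments could be divided between them. Cerkl had at most 154 fragments in any library and was called higher (log2 fold change 1.49).

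Itga5, the fibronectin receptor alpha subunit, lies on chromosome 15 from 103344286 to 103366748. The MP libraries held 1757, 1678 and 1850 scaled fragments, and the APL libraries held 1336, 1493 and 1361. The groups did not overlap, yet the difference was small. The log2 fold change was −0.34, with a 95% confidence interval from −0.51 to −0.16 (adjusted p = 0.0037 from limma), below the fold change threshold in all alternatives. Of the genes tested on chromosome 15, 18.8% had a lower log2 fold change.

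Itga6, a laminin receptor alpha subunit that pairs with Itgb1 or Itgb4, lies on chromosome 2 from 71787083 to 71856758. Scaled fragments numbered 1090, 1103 and 1096 in the MP libraries and 330, 347 and 299 in the APL libraries. The MP libraries were nearly equal, and every APL library was far below them. Itga6 fell 3.37-fold, a log2 fold change of −1.75 (SE 0.09; adjusted p = 3.2e-07 from limma), and 11.6% of all genes tested had a lower value.

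Itga9, whose product binds tenascin, osteopontin and VCAM-1, lies on chromosome 9 from 118606709 to 118901003 and was almost absent. It had 11, 8 and 20 fragments before scaling in MPs and 1, 0 and 1 in APL progenitors. Every MP library was above every APL library, but at few fragments. On these counts, 39 fragments against 2, the level in MPs was 17.0 times that in APL progenitors, with an exact 95% interval from 4.40 to 145 that covers counting error only. The fitted log2 fold change was −2.86 (adjusted p = 5.6e-04 from limma) and ranged from −3.52 to −1.51 over the settings tried. With FPKM or a minimum of 10 scaled fragments in at least 3 libraries, Itga9 was not tested.

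Itgav, the alpha subunit of the vitronectin receptors, which pairs with Itgb1, Itgb3, Itgb5 and others, lies on chromosome 2 from 83724397 to 83806916. The MP libraries held 449, 475 and 398 scaled fragments, and the APL libraries held 809, 758 and 729. The groups were well apart. Itgav rose 1.74-fold, a log2 fold change of 0.80 (SE 0.10; adjusted p = 9e-05 from limma). Itgav and Itgal had like increases, and their order turned without MP library 3 (0.73 and 0.76), without APL library 1 (0.76 and 0.80) and with FPKM (0.75 and 0.76). The genes nearest to the pattern of Itgav were Ap1g1, Lrba and Dock11, with root mean square differences of 0.033, 0.038 and 0.041 on the log2 scale over the 6 libraries. The genes nearest to Itga9 were Gpm6b, Kcne3 and Ccdc74a, with differences of 0.096, 0.17 and 0.17.

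Itgal, the alpha subunit of LFA-1, lies on chromosome 7 from 127296260 to 127335137. Scaled fragments numbered 2690, 2341 and 2517 in the MP libraries and 4025, 4501 and 4246 in the APL libraries. The groups were well apart. Itgal rose 1.69-fold, a log2 fold change of 0.76 (SE 0.08; adjusted p = 3.1e-05 from limma). It kept its call in all settings tried, with values from 0.63 to 0.88, as did Itgav with values from 0.67 to 0.91.

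Itgae, the alpha subunit of the E-cadherin receptor of mucosal lymphocytes, lies on chromosome 11 from 73090595 to 73147449. It had between 2.71 and 9.52 scaled fragments in MP libraries and between 4.33 and 8.64 in APL libraries, so that the groups overlapped. The log2 fold change was 0.14, with a 95% confidence interval from −0.90 to 1.17 (adjusted p = 0.81 from limma), and a difference was not detectable at this depth. The table gives Itgae the locus of Gsg2, which lies within it, and fragments could be divided between them. Gsg2 had between 586 and 905 fragments per library.

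**Figure D2:**
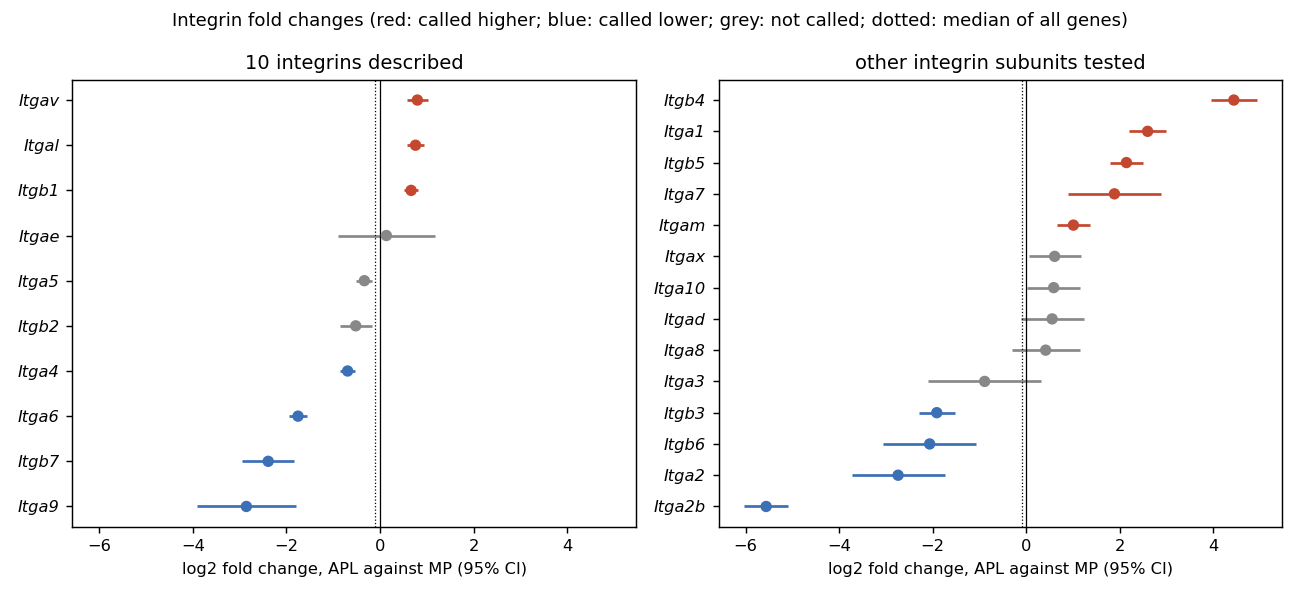
Log2 fold change of each integrin gene tested (x axis, APL over MP, with 95% confidence intervals from limma), for the 10 genes described (left) and 14 other subunits (right). Red marks genes called higher, blue genes called lower, and grey genes not called, and the dotted line is the median of all genes tested (−0.10); Itgb1, Itgal and Itgav lie close together to the right of 0, while Itga6, Itgb7 and Itga9 lie far to the left.

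Levels were compared between subunits as FPKM. In normal MPs the order from the highest was Itgb1 with 51.4 ± 1.71 FPKM, Itgb2 with 25.5 ± 5.20, Itga4 with 18.1 ± 1.04, Itgal with 16.8 ± 1.13, Itga5 with 13.4 ± 0.44, Itga6 with 8.55 ± 0.048, Itgb7 with 4.42 ± 0.90 and Itgav with 2.28 ± 0.17 (SD, n = 3 each). Itga9 and Itgae followed with 0.060 and 0.048. Of the neighbors in this order, Itga4 and Itgal overlapped between libraries, and so did Itga9 and Itgae. In c-Kit+ APL progenitors the order was Itgb1 with 80.7 ± 0.35 FPKM, Itgal with 28.4 ± 1.36, Itgb2 with 17.6 ± 1.5, Itga4 with 11.1 ± 0.39, Itga5 with 10.7 ± 0.52, Itgav with 3.89 ± 0.26, Itga6 with 2.54 ± 0.21 and Itgb7 with 0.84 ± 0.22 (SD, n = 3 each), followed by Itgae and Itga9 with 0.050 and 0.0051. Here only Itga4 and Itga5 overlapped. Itgal thus stood below Itgb2 in all MP libraries and above it in all APL libraries.

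Ratios of FPKM within a library do not depend on how the libraries were scaled, and 8 pairs of subunits were compared in this way. Each of the 8 ratios separated the groups without overlap (two-sided exact permutation p = 0.1, and 0.1 after Benjamini-Hochberg adjustment over the 8, which is the smallest p possible). For the ratios over Itgb1 and that of Itgal to Itgb2 this outcome was fixed in advance. Their single genes already separated the groups in opposite directions, so these ratios give a size and no further test. The share of other gene pairs that separate was not computed. Itgb7 was at 0.083, 0.073 and 0.10 of Itgb1 in MPs and at 0.012, 0.012 and 0.0074 in APL progenitors, a difference of −3.05 on the log2 scale. Itgb2 was at 0.59, 0.39 and 0.51 of Itgb1 in MPs and at 0.21, 0.24 and 0.21 in APL progenitors (−1.17). The ratio of Itga4 to Itgb1 was on average 0.35 in MPs and 0.14 in APL progenitors (−1.36), and that of Itga4 to Itgb7 was 4.16 and 13.5 (1.69).

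Itga5 and Itga6 were also lower in APL progenitors relative to Itgb1. The ratio of Itga5 to Itgb1 was 0.26 in MPs and 0.13 in APL progenitors (geometric means, a difference of −0.98), and that of Itga6 to Itgb1 was 0.17 and 0.031 (−2.41). Ratios over Itgb1 take in the level of chromosome 8, whose median log2 fold change was 0.48. Ratios with Itga5 or Itgb7 take in that of chromosome 15 (0.46). The part of these levels in the ratios was not tested. In LFA-1 the alpha subunit was higher relative to the beta subunit. Itgal was at 0.61, 0.80 and 0.61 of Itgb2 in MPs and at 1.60, 1.53 and 1.71 in APL progenitors (1.28). The ratio of Itgae to Itgb7 rests on few fragments of Itgae and had a difference of 2.60 with an SD of 1.21 among MP libraries.

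**Figure D3:**
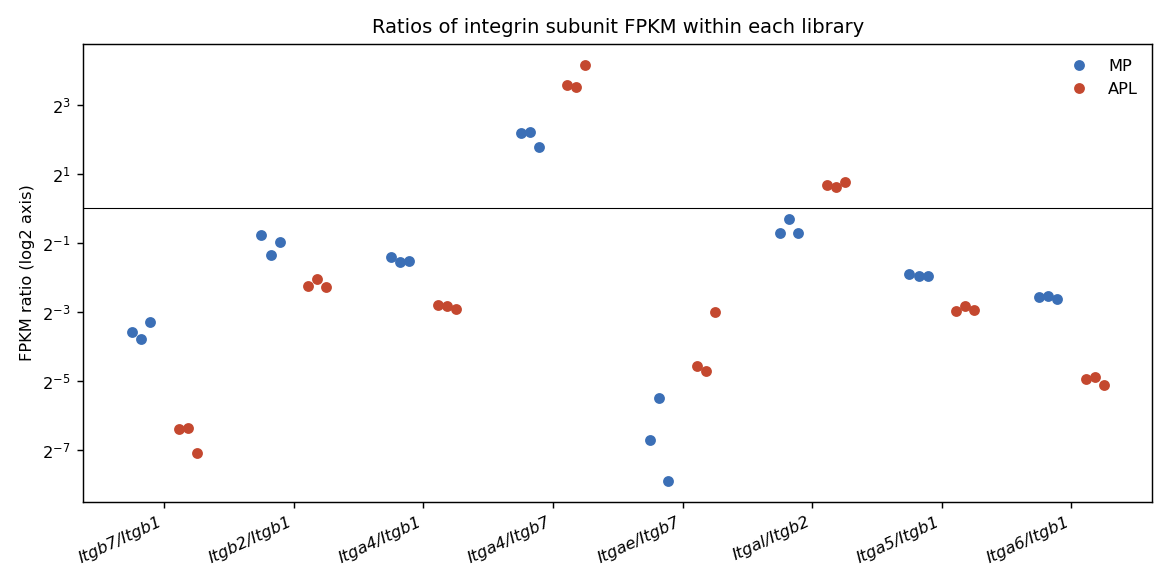
Ratio of the FPKM of 2 integrin subunits within each library (y axis, log2 scale) for 8 pairs of subunits, with normal MPs in blue and c-Kit+ APL progenitors in red. Points are single libraries and the horizontal line marks equal FPKM; the MP and APL points are apart for each pair, and the line lies between them only for Itgal over Itgb2.

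The alpha subunits able to pair with Itgb1 were also summed, a comparison chosen after the values were seen. Over these 12 genes (Itga1 to Itga11 and Itgav, some of which pair with other beta subunits too) the summed FPKM was 43.2 ± 1.23 in MPs and 30.3 ± 0.80 in APL progenitors, while Itgb1 itself was higher in APL progenitors. Itga4 held 42.0% ± 1.22 of the sum in MPs and 36.6% ± 0.68 in APL progenitors. Itga5 held 31.0% ± 0.56 and 35.2% ± 1.69. Itga6 went from 19.8% ± 0.68 to 8.38% ± 0.48, Itgav from 5.28% ± 0.50 to 12.8% ± 0.65 and Itga1, a collagen receptor subunit, from 0.52% ± 0.077 to 4.54% ± 0.42 (SD, n = 3 each). Each of these 5 shares separated the groups (two-sided exact permutation p = 0.1, the smallest possible). So did the shares of Itga10 and, at few fragments, of Itga2, Itga7, Itga8 and Itga9, whereas those of Itga3 and Itga11 did not. Of all genes tested, 70.9% did not overlap between the groups in scaled fragments. The shares are parts of 1 sum, so they do not vary independently. Itga4 and Itga5 held the largest shares in all libraries.

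**Figure D4:**
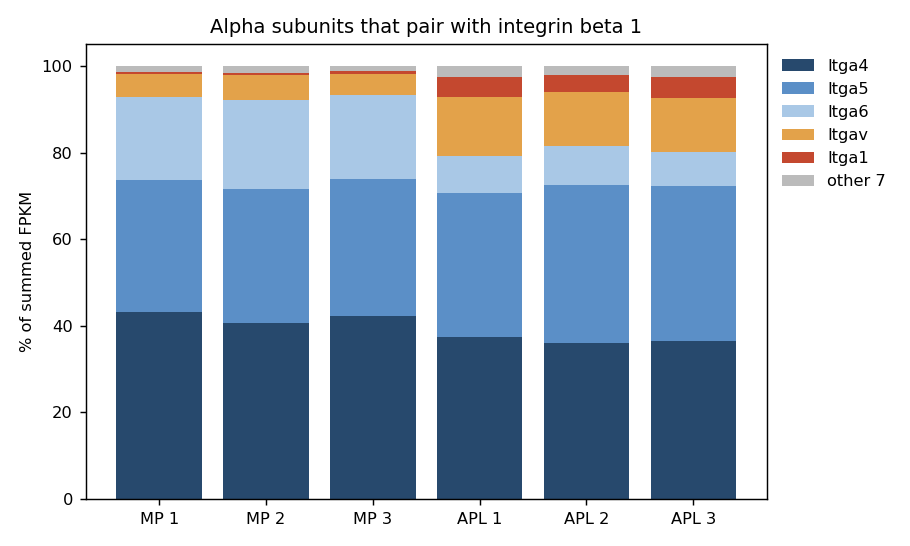
Share of the summed FPKM of the 12 alpha subunits that can pair with integrin beta 1 (y axis, %, from 0) held by each subunit in each of the 6 libraries. Itga4 and Itga5 fill most of each bar; the part of Itga6 is smaller, and the parts of Itgav and Itga1 are larger, in the APL bars than in the MP bars.

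Of 16 other integrin subunits listed, 15 were in the table and 14 were tested, of which 5 were called higher and 4 lower in c-Kit+ APL progenitors (64.3% called, beside 46.1% of all genes tested). The count includes Itga2 and Itgb6, which passed the filter on low values only through the MP libraries, and Itga7, which passed only through the APL libraries. Several of them are partners of the genes above, and their log2 fold changes, in parentheses, are on the scale of scaled fragments. Itgb5 and Itgb3, which pair with Itgav, moved apart, Itgb5 from 2.28 ± 0.44 to 10.1 ± 0.91 FPKM (log2 fold change 2.14) and Itgb3 from 3.04 ± 0.48 to 0.79 ± 0.13 (−1.91). Itgb4, which pairs with Itga6 in a laminin receptor, rose from 0.048 ± 0.0063 to 1.17 ± 0.14 FPKM (4.44), while Itga6 fell. Itgam (CD11b), a leukocyte alpha subunit that pairs with Itgb2, rose from 18.8 ± 4.46 to 37.0 ± 1.52 FPKM (1.01), and Itga7, with 1, 0 and 0 fragments in MPs and 3, 6 and 2 in APL progenitors, lay near the floor of 3 fragments. Itga2b, the alpha subunit of the platelet fibrinogen receptor, fell from 18.6 ± 2.16 to 0.40 ± 0.13 FPKM (−5.56). Itga1 rose with a log2 fold change of 2.59. Itga2 was at 0 in all APL libraries and at 20 fragments over the MP libraries, which is 5.81-fold lower when the APL group is set to the floor of 3 fragments and at least 4.3-fold lower by the exact 95% limit for counting error, and Itgb6 was called lower from 5.86 to 0.68 scaled fragments. Itga10, the most abundant that was not called, had 0.41 FPKM in MPs and 0.60 in APL progenitors (log2 fold change 0.59, adjusted p = 0.062 from limma). It was called higher without MP library 2 (0.82, adjusted p = 0.011 from limma), with quantile normalization (0.96) and with the median ratio scaling without chromosomes 8 and 15 (0.70). With 1 library left out, 6 of these subunits were called higher without MP library 1 or 2, 7 without MP library 3 and 4 without any 1 of the APL libraries, and 3 were called lower without any 1 of the MP libraries. With quantile normalization 9 of these subunits were called higher, and with FPKM 2 were called lower.

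Itga2b and Itgb3 are themselves among the 8 megakaryocyte and platelet markers, of which 7 were called lower. Beside the counts of markers called, 24.4% of all genes tested were called lower and 21.7% higher. The marker counts include Gp9, Cd4, Ebf1, Kdr and Cxcl12, which passed the filter on low values only through the MP libraries, and Lepr, which passed only through the APL libraries. The summed FPKM of the 8 megakaryocyte and platelet markers was 75.7, 71.8 and 108 in MPs and 3.16, 3.06 and 4.21 in APL progenitors, and the most abundant was Pf4. All 6 erythroid markers were called lower, the most abundant was Car1 in MPs and Tfrc in APL progenitors, and their summed FPKM was 1481, 1622 and 1985 in MPs and 37.2, 36.9 and 36.6 in APL progenitors. Of 6 mast cell and basophil markers 4 were called lower and 1 higher, the most abundant on average was Gata2 in MPs and Mcpt8 in APL progenitors, and the sums were 94.1, 83.4 and 110 in MPs and 42.9, 51.0 and 49.6 in APL progenitors. In MPs Gata2 and Cpa3 overlapped between libraries, with 35.6 ± 6.23 and 34.0 ± 6.61 FPKM (SD). Of 6 monocyte and dendritic markers 4 were called lower, the most abundant on average was Irf8 in MPs and Csf1r in APL progenitors, Cd209a had at most 3 fragments in every library, and the sums were 80.6, 66.8 and 81.1 in MPs and 7.96, 9.84 and 8.80 in APL progenitors. In APL progenitors Csf1r and Klf4 overlapped between libraries, with 3.61 ± 0.40 and 3.09 ± 0.37 FPKM (SD). Of 4 B cell markers tested 3 were called lower, the most abundant was Cd79b, Ms4a1 had at most 3 fragments in every library, and the sums were 13.1, 12.3 and 14.8 in MPs and 0.31, 0.65 and 0.38 in APL progenitors. Sums of T and NK cell markers lay between 3.71 and 5.72 FPKM in MPs and between 2.43 and 3.34 in APL progenitors, with Cd4 the most abundant in MPs and Lck in APL progenitors, 1 of 4 tested called lower, and Cd3e and Gzma at most 3 fragments in every library. Sums of endothelial and stromal markers, with Col1a2 the most abundant in MPs and Col1a1 in APL progenitors, lay between 1.2 and 1.49 FPKM in MPs and between 0.67 and 1.06 in APL progenitors, 2 of 6 being called higher and 3 lower. Primary granule markers went the other way, with 4 of 5 called higher, Mpo the most abundant in MPs and Elane in APL progenitors, and sums of 9920, 8770 and 8849 FPKM in MPs and 24186, 28629 and 27891 in APL progenitors. The lists that were lower in APL progenitors moved in the same direction as Itga4, Itga6 and Itgb7, and their part in these decreases was not tested.

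Integrins are switched on and off by proteins that bind their tails. Of 17 activators and inhibitors tested, 1 was called higher and 6 lower (5 without MP library 3 or APL library 1), with a median log2 fold change of −0.06. The share called was 41.2%, near the 46.1% of all genes tested. The number called lower was also 5 with the median ratio, with FPKM and with the median ratio scaling without chromosomes 8 and 15. Talin (Tln1), which binds the beta tail, had 61.8 ± 5.34 FPKM in MPs and 62.4 ± 2.76 in APL progenitors (log2 fold change −0.01). The hematopoietic kindlin Fermt3 fell from 126 ± 17.6 to 84.6 ± 9.50 FPKM (−0.60), a 1.52-fold change just past the threshold, and the Rap1 effectors Rassf5 and Apbb1ip had log2 fold changes of −0.81 and −0.75. Fyb, an adaptor of inside-out signaling, fell by 2.93 on the log2 scale, Tln2 by 2.16 and Cyth1 by 0.91. The log2 fold change of Tln2 was −0.92 with FPKM and −1.55 with quantile normalization. Flna, which binds beta tails and actin, rose (1.07). Rap1b, the most abundant by FPKM of the genes not called, had a log2 fold change of 0.49.

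Of 20 kinases and adaptors tested downstream of integrins, 4 were called higher (3 without MP library 2) and 4 lower, with a median log2 fold change of 0.01. The share called, 40.0%, was also near that of all genes. The count includes Ptk2, which passed the filter on low values only through the MP libraries. Ptk2, the focal adhesion kinase, had 857 fragments over the MP libraries and 3 over the APL libraries, a ratio of 249 with an exact 95% interval from 84.9 to 1210 that covers counting error only. Its relative Ptk2b (Pyk2) was not called, with 13.7 ± 0.63 and 18.9 ± 1.13 FPKM. Parvb and Parvg, which bind the integrin-linked kinase Ilk, moved in opposite directions, Parvb from 6.56 ± 0.43 to 0.69 ± 0.10 FPKM (−3.24) and Parvg from 75.0 ± 4.84 to 128 ± 6.24 (0.78). Src fell (−3.28), but with 3, 3 and 3 fragments in the APL libraries it lay at the floor there. Its log2 fold change ranged from −3.58 to −1.91 over the settings tried. Actn1 rose (1.16), and Actn4, the most abundant gene that was not called, had 0.22.

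Of 16 integrin ligands tested, 8 were called higher and 4 lower, with a median log2 fold change of 0.81 and a share called of 75.0%, against 46.1% of all genes. The count includes Lamb1, which passed the filter on low values only through the APL libraries. With 1 library left out, 8 or 9 were called higher and 3 or 4 lower. Spp1 (osteopontin), a ligand of VLA-4, Itga9 and Itgav integrins, rose from 1.96 ± 0.0086 to 304 ± 25.7 FPKM (7.25). Fn1 (fibronectin), the ligand of Itga5 and Itga4, rose from 0.45 ± 0.13 to 18.6 ± 2.34 FPKM (5.36). Lamb1, a laminin chain, had 0, 3 and 1 fragments in MPs and 1176 ± 27.3 scaled fragments in APL progenitors. Vcam1 rose as well (0.88). Icam4 fell from 13.1 ± 2.99 to 0.15 ± 0.092 FPKM (−6.05), and Cdh1, the ligand of Itgae, by 2.37 on the log2 scale. Tgfb1, the most abundant that was not called, had −0.01. Of 12 other adhesion receptors, 3 were called higher, among them the chemokine receptor Cxcr4 (1.93), and 5 lower, among them Cd34 (−6.31), Alcam (−4.42), Esam (−2.64) and Pecam1 (−1.94), and Cd47 was not called (0.17). The share called in this list was 66.7%.

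**Figure D5:**
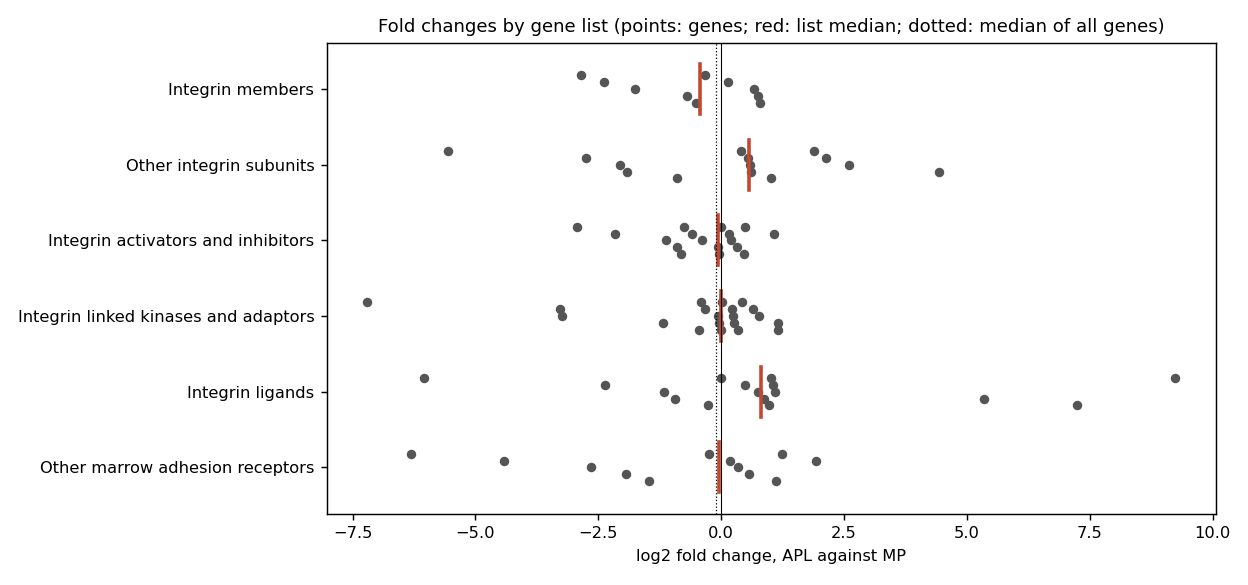
Log2 fold change (x axis, APL over MP) of each gene tested in the 10 integrin genes and in 5 lists of related genes. Points are genes, red bars are list medians and the dotted line is the median of all genes tested (−0.10); activators and adaptors gather around 0, with medians of −0.06 and 0.01, and ligands have a median of 0.81.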

How the data were processed

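The 6 libraries, 3 of normal MPs and 3 of c-Kit+ APL progenitors, were grouped by their titles. The authors deposited 1 table that holds, per gene and library, an FPKM value (fragments normalized for transcript length and library size) and a fragment estimate. The deposited fragment estimates are a signal rather than counts, since each library had been multiplied by a factor, and 1 fragment was worth between 0.867 and 1.23. Divided by this step, between 84.2% and 87.1% of nonzero values were whole within 0.01, so no count model was used. The submitters' processing notes name CASAVA 1.8, TopHat2 2.0.6 and mm10, whereas the methods of the paper name STAR on mm9 and HTSeq-count. The table's loci follow mm10: of 16361 genes in the RefSeq annotation of GRCm38, 7057 had a start exactly 1 base before the RefSeq start, so starts are given 1 higher than deposited. Fragments of genes that share a locus could be divided between them.

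Genes with at least 1 scaled fragment in at least 3 of the 6 libraries were tested with limma 3.58.1 in R 4.3.3 (lmFit, then eBayes with trend) after a log2(scaled fragments + 1) transformation, which makes changes of weakly expressed genes look smaller. At most 3 fragments was taken as the floor, and intervals cover counting error only. The labels call the libraries biological replicates but do not say which came from separate mice, so p-values measure the spread between these libraries. The test was also run on simulated data with known changes, but its outcome is not reported here. Single genes and ratios were compared with exact permutation tests in scipy 1.17.1. Figures were drawn with matplotlib 3.10.9.

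Named genes were the 10 integrin genes and, from each list, up to 5 called genes with the largest changes and the most abundant gene not called. The 3 genes nearest in pattern were named for Itgav and Itga9, whose log2 fold changes were the most positive and the most negative called in the fit described. Of the genes this rule names, 1 is not reported here. Fermt3, Apbb1ip, Tln1, Ptk2b, Parvg, Vcam1, Itgb3, Itgb6, Itga7 and Itgam were named after their values were seen. The 10 genes, the lists and the tests were chosen with earlier results of these data known. Counts and fold changes were recomputed under 18 alternatives, which varied the pseudocount, the filter, the scaling, the unit, the weights, the threshold, the block and the libraries used, and under 1 added after the values were seen.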

Additional observations from a re-analysis of the deposited data

How the results depend on the processing

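Of the 10 integrin genes, 6 kept their direction and their side of the threshold under every alternative that kept the threshold on the fold change and gave a value. With no such threshold, Itga5 and Itgb2 were called lower as well. The number called higher was 2 or 3 and the number called lower between 3 and 6. Itgb1 lost its call in 3 alternatives and Itga4 in 1, and Itgb2 gained a call in 4 more, as given above. The median over all genes tested went from −0.10 to −0.23 (log2) with scaling to the same total and with voom weights, and to 0.01 with the added median ratio scaling without chromosomes 8 and 15. Of the genes called, 52.9% were lower, against 60.8%, 60.9% and 46.0% in these settings. Over all genes, 3167 were called higher and 3558 lower, and with no threshold on the fold change 5443 were lower. With 1 library left out at a time these counts lay between 2734 and 3256 and between 2913 and 3507, and the number of integrin genes called lower was 4 or 5. Itgae had a log2 fold change between −0.22 and 0.53 with 1 library left out, and turned negative without MP library 3 and without APL library 3 (−0.13). Tgfb1 had 0.053 with the median ratio, 0.016 with FPKM, 0.11 with the added scaling, and between −0.081 and 0.091 with 1 library left out. With the replicate block the same numbers of integrin genes were called, 3 higher and 4 lower. Over all genes the block gave 3164 higher and 3589 lower. The block uses library numbers that did not pair the libraries: over 11061 genes, the correlations between MP and APL libraries of the same number, after subtraction of the group mean, were 0.13, −0.0016 and 0.13. With no threshold on the fold change, 4 activators and inhibitors were called higher in place of 1 (3 with the added scaling), and 7 kinases and adaptors were called higher and 7 lower in place of 4 and 4. Other integrin subunits called lower were 2 in place of 4 with a minimum of 10 or with FPKM. All 8 subunit ratios kept their direction. With pseudocount 5 the decrease of Itga9 (−1.51) was smaller than those of Itgb7 (−2.31) and Itga6 (−1.74), and without APL library 2 it was −2.48 against −2.51 for Itgb7. The cause of these changes was not tested.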
